A study of Drosophila melanogaster with 16 samples.

Results

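The response of wild-type (WT) Drosophila melanogaster to chronic hypoxia (CH) at normal air pressure was read from 8 of the 16 single whole flies of the study, 4 CH-WT flies (replicates 3, 5, 6 and 7) and 4 normoxic WT flies (replicates 2, 3, 5 and 6). Every probe set of the Affymetrix Drosophila Genome 2.0 array except the spike-in controls was included, which left 18907 of 18952, and no measured value entered that choice. The CH-WT flies carried the ubiquitous P-tub-Gal4 driver alone, were 3 to 5 days old, and were kept for 2 weeks in a hypoxic chamber in Philadelphia, in which a gas mixer lowered oxygen along the log of a 16-day climb, between 16.3% and 9.9% oxygen. The normoxic WT flies had the same genotype and age and breathed room air in the same city. Both groups therefore share the Gal4 driver and lack the double-stranded RNA against dystrophin, and "wild type" stands here for 1 driver stock. Among the labels, CH-WT 3 has dmDys, the dystrophin-knockdown genotype, as its strain and CH-WT 5 has a second sample number, and the titles decided. On the array of CH-WT 3 the lowest log2 value is 1.95, as on the other WT arrays, and lies below the 2.06 of the dmDys arrays. Since each array holds the RNA of 1 fly, the p-values measure the spread between single flies, and fewer cells of a type cannot be told apart from less RNA per cell.

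Heat shock proteins are chaperones that bind unfolded proteins, and their genes are switched on by the transcription factor Hsf under heat and other stress that damages proteins. Low oxygen has a dedicated pathway in flies, in which the prolyl hydroxylase Hph marks the transcription factor Sima for destruction while oxygen is plentiful. When oxygen falls, Sima with its partner tgo raises genes of tracheal growth, of glycolysis and of growth restraint. Adult flies also store protein, fat and glycogen in the fat body, an organ with the functions of liver and adipose tissue.

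In the CH-WT flies the transcripts of the stress-inducible heat shock genes stood above those of the normoxic WT flies. Other genes also separated the groups, but none of them passed the threshold given below in the fit with the testis covariate. Levels are log2 values of the deposited intensity. Differences are CH-WT minus normoxic WT from limma, fitted on the 8 flies with the testis signal of each fly as a covariate, and a probe set was called where its p, adjusted by Benjamini-Hochberg, was under 0.05 and its log2 difference had a size of 1 or more. This fit called 4 probe sets as higher and 0 as lower, 0.0212% of those tested, and 1011 (5.35%) had an unadjusted p under 0.05. Without the covariate the fit called 0 probe sets, and 232 (1.23%) had an unadjusted p under 0.05. On the 6 flies with testis transcripts it also called 0, and 897 (4.74%) had an unadjusted p under 0.05. The levels of the 4 CH-WT and the 4 normoxic WT flies did not overlap for 90 probe sets higher in CH-WT (0.476%) and for 75 lower in CH-WT (0.397%), and in the 6 flies for 953 (5.04%) and 832 (4.4%). The median difference over all probe sets was -0.002.

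Some flies stood apart within their groups. The median level of the testis genes betaTub85D, Mst87F and dj was 12.60, 12.85, 13.10 and 2.38 in CH-WT 3, 5, 6 and 7, against 13.13, 13.15, 2.21 and 13.28 in normoxic WT 2, 3, 5 and 6. CH-WT 7 and normoxic WT 5 thus lacked testis transcripts, although the transcripts of the male accessory gland were high in all 8 flies (median 13.3 to 14.1) and those of eggs and yolk were near the floor (median 2.17 to 2.22). Nerve cell transcripts were highest in the same flies, with a median of 10.3 in CH-WT 7 and 11.0 in normoxic WT 5 against 8.86 to 9.51 in the other 6. Among the 90 probe sets above normoxic WT, CH-WT 7 was the highest CH-WT fly in 80. For the control transcripts eIF-4a, Gapdh and Act5C, the log2 difference between 3' and 5' probe sets, which shows how far amplification reached along the RNA, averaged 6.23 ± 0.73 in CH-WT and 7.00 ± 0.19 in normoxic WT flies (SD, n = 4 each), a difference of -0.77 (exact permutation test, two-sided, p = 0.029, which is the smallest for 4 against 4 flies). Without the flies that lack testis transcripts it averaged 6.60 ± 0.08 in CH-WT and 6.96 ± 0.21 in normoxic WT (SD, n = 3 each; exact p = 0.1, the smallest possible), and with the middle probe sets in place of the 5' ones it was 3.24 ± 0.35 in CH-WT and 3.37 ± 0.23 in normoxic WT (exact p = 0.6).

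All 4 called probe sets belong to heat shock genes. Of 12 probe sets of the inducible heat shock list, 9 did not overlap between the groups, all of them higher in CH-WT, against 0.476% of all probe sets. The same 9 had an unadjusted p under 0.05 as higher, which 3.08% of all probe sets had. In the 6 flies with testis transcripts 10 of the 12 did not overlap. The median difference of the list was 2.39. The list had been named in earlier results of these flies, so its count is a description.

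The Hsp70 genes encode the major inducible chaperone and exist in near-identical copies that share probe sets, so a value cannot be assigned to 1 copy. The probe set shared by Hsp70Ba, Hsp70Bb, Hsp70Bbb and Hsp70Bc was at 12.80, 12.33, 12.62 and 13.04 in CH-WT 3, 5, 6 and 7, against 8.37, 9.03, 9.64 and 8.69 in normoxic WT 2, 3, 5 and 6. It rose by 3.75 ± 0.19 (SE), or 13.5-fold (limma, adjusted p = 0.019), and the lowest CH-WT fly lay well above the highest normoxic one. A second probe set, for Hsp70Bb and Hsp70Bc, was at 10.01, 9.07, 9.89 and 10.48 in CH-WT, against 5.84, 5.92, 7.01 and 5.78 in normoxic WT, and rose by 3.71 ± 0.23 (SE; limma, adjusted p = 0.029). The probe set of Hsp70Aa and Hsp70Ab was at 12.83, 12.15, 12.71 and 12.91 in CH-WT, against 9.90, 8.94, 9.88 and 8.69 in normoxic WT. It did not overlap either, with a difference of 3.29 ± 0.32 (SE), but missed the threshold (limma, adjusted p = 0.16). Hsp68, a single-copy relative of Hsp70 on chromosome arm 3R, was at 11.85, 11.71, 11.67 and 12.41 in CH-WT, against 9.70, 9.48, 9.80 and 9.37 in normoxic WT. It rose by 2.31 ± 0.11 (SE), or 4.97-fold (limma, adjusted p = 0.019).

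The small heat shock proteins hold unfolded proteins in a soluble state until Hsp70 refolds them. Hsp27 was at 12.42, 12.34, 12.65 and 12.70 in CH-WT 3, 5, 6 and 7, against 10.83, 10.79, 11.10 and 10.67 in normoxic WT 2, 3, 5 and 6, and rose by 1.67 ± 0.08 (SE), or 3.19-fold (limma, adjusted p = 0.019). No normoxic fly came near the CH-WT range. Hsp26 was at 12.20, 11.89, 12.71 and 12.36 in CH-WT, against 9.66, 9.79, 9.98 and 9.75 in normoxic WT, a difference of 2.49 ± 0.18 (SE) just outside the threshold (limma, adjusted p = 0.053). Hsp23 was at 12.11, 11.55, 12.07 and 12.07 in CH-WT, against 10.31, 10.00, 10.88 and 9.86 in normoxic WT (difference 1.68, limma, adjusted p = 0.23). Hsp27, Hsp26 and Hsp23 lie on chromosome arm 3L, as does Hsp67Bc. Hsp67Bc was dimmer, at 6.99, 6.50, 8.15 and 8.47 in CH-WT, against 5.00, 5.00, 5.88 and 4.28 in normoxic WT (difference 2.46, limma, adjusted p = 0.40). A probe set shared by Hsp22, the mitochondrial member, and CG4456 was at 11.45, 11.35, 11.75 and 11.84 in CH-WT, against 8.94, 8.92, 9.71 and 8.41 in normoxic WT (difference 2.59, limma, adjusted p = 0.053).

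The other 3 probe sets of the list overlapped between the groups. All 3 are shared between genes. The one shared by CG31343, Hsp70Bb and Hsp70Bc lay between 10.57 and 12.07 in CH-WT and between 10.67 and 13.74 in normoxic WT, and the second one of Hsp22 and CG4456 between 10.40 and 12.07 in CH-WT and between 7.10 and 11.82 in normoxic WT. The third, of the Hsp70B copies, was close to the floor, between 2.26 and 3.54 in CH-WT and between 2.17 and 2.29 in normoxic WT. In the first of these normoxic WT 5 was the highest of the 8 flies and in the second the lowest.

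**Figure D1:**
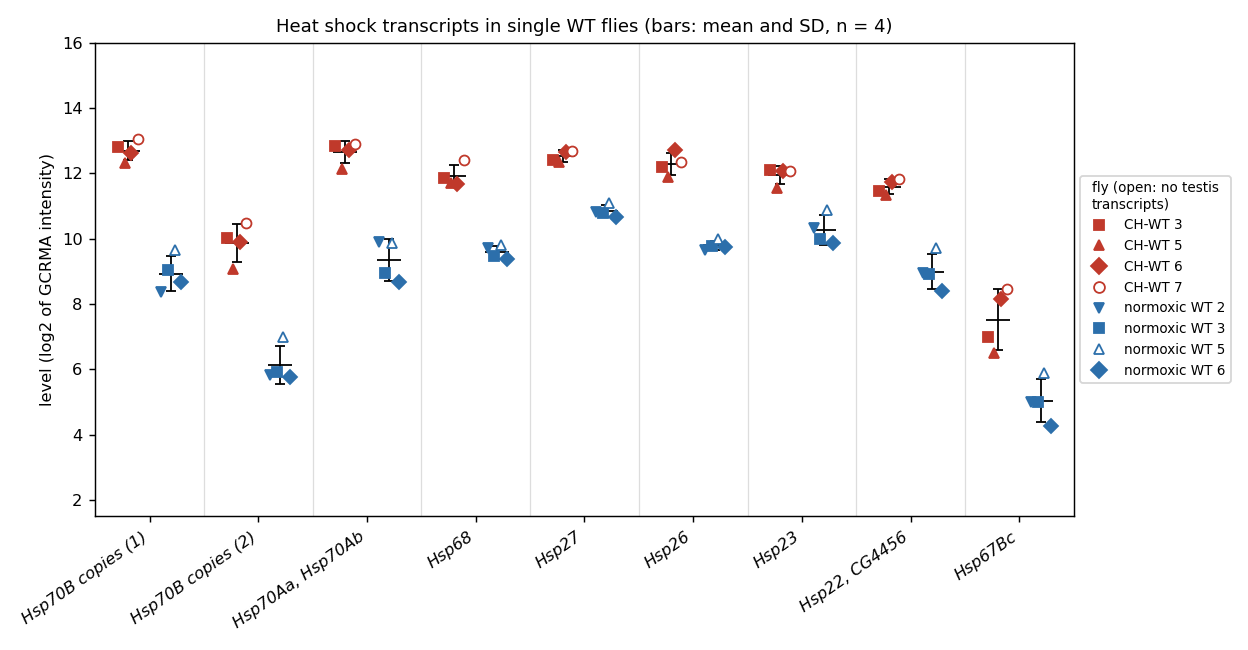
Level (log2 of the deposited intensity, vertical axis) of 9 heat shock probe sets in each CH-WT fly (red) and each normoxic WT fly (blue); open symbols are the flies without testis transcripts, and bars give the mean and SD (n = 4). The 9 probe sets are those of the list whose groups did not overlap, so in each all CH-WT flies lie above all normoxic WT flies.

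The calls rested on few flies. The fit called 0 probe sets without CH-WT 3 or 5 or without normoxic WT 2, 3 or 6, and 1 probe set outside the list without CH-WT 7 or without normoxic WT 5. Without CH-WT 6 it called 3, of which 2 were in the heat shock list. With the 3' to 5' difference as a further covariate it called 0. In each of these fits 9 probe sets of the list had an unadjusted p under 0.05 in the direction of CH-WT, against 2.18% to 3.97% of all probe sets, and the median difference of the list stayed between 2.22 and 2.48. The part of the 3' to 5' difference in these levels was not tested beyond that fit, in which the median difference of the list was 2.35.

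Other chaperones and co-chaperones differed less. Of 28 genes 5 had an unadjusted p under 0.05 as higher in CH-WT and 0 as lower, against 3.08% and 2.27% of all probe sets. The median difference of the list was 0.11. In the 6 flies with testis transcripts 8 did as higher and 1 as lower, against 3.01% and 1.73%, and the median was 0.20. There 9 did not overlap as higher and 1 as lower, against 5.04% and 4.4% of all probe sets. DnaJ-1, an Hsp40 partner of Hsp70, was at 13.70, 13.40, 13.72 and 14.01 in CH-WT, against 13.11, 12.89, 13.02 and 12.82 in normoxic WT. Its groups did not overlap, with a difference of 0.74 ± 0.12 (SE; limma, adjusted p = 0.38). The co-chaperone starvin (stv), a BAG protein of muscle, differed by 0.69, the endoplasmic reticulum chaperone Gp93 by 0.46, the chaperonin subunit CCT7 by 0.46 and the constitutive Hsc70-4 by 0.24. Hsf itself lay between 9.18 and 10.08 in CH-WT and between 9.02 and 9.95 in normoxic WT, a difference of 0.18 (limma, unadjusted p = 0.12). Outside the chaperones, mora, named for its p alone, was the only other probe set with an adjusted p under 0.05 (0.0264% of probe sets at any fold): it was at 9.38, 9.23, 9.36 and 9.69 in CH-WT, against 8.50, 8.61, 8.93 and 8.48 in normoxic WT, a rise of 0.77 ± 0.05 (SE; limma, adjusted p = 0.029) that was under the required log2 difference of 1.

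The same heat shock probe sets differed in the other direction in the second experiment of the study, in which dmDys flies went up the mountain. These flies expressed double-stranded RNA against dystrophin under the same driver, 4 were exposed to low air pressure (CH-dmDys) and 4 to normoxia, and their arrays have a higher lowest value than the WT arrays, so only the differences within each genotype are set beside each other. The median difference of the 12 heat shock probe sets was 2.39 in WT and -3.39 in dmDys. In 1 limma fit of all 16 flies with the testis covariate the responses of WT and dmDys differed for 1016 probe sets (5.37%, adjusted p under 0.05), for 471 (2.49%) with the higher difference in WT and for 545 (2.88%) with the lower, and the heat shock list gave 10 of its 12. The shared probe set of the Hsp70B copies differed by 3.75 in WT and by -11.41 in dmDys, a difference between the responses of 15.16 ± 0.37 (SE; limma, adjusted p = 4.5e-10). It averaged 14.84 ± 0.18 in normoxic dmDys flies and 3.42 ± 0.59 in CH-dmDys flies (SD, n = 4 each). The paper reports Hsp70 genes among those higher in normoxic dmDys than in normoxic WT flies. The CH-dmDys level was close to the floor, so the size of the difference depends on where the floor lies. With every value under 4 set to 4, which was tried after the data had been seen, it was -10.80 in dmDys and 14.55 between the responses, and 912 probe sets differed, 9 of them in the heat shock list. Hsp68 differed by 2.31 in WT and by -4.62 in dmDys, and Hsp27 by 1.67 in WT and by -2.50 in dmDys. Type of hypoxia, genotype and place of exposure changed together between the experiments and cannot be told apart in these arrays. By qPCR the paper also compared dmDys flies under normobaric hypoxia with normoxic dmDys flies. It reports lower Hsp26, Hsp27, Hsp67Bc and Hsp68 there, and lower Hsp23 without significance. On the arrays the 3' to 5' difference lay between 3.32 and 4.60 in CH-dmDys and between 5.99 and 10.05 in normoxic dmDys flies. Without the testis covariate 195 probe sets differed, again with 10 of the 12 heat shock probe sets.

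**Figure D2:**
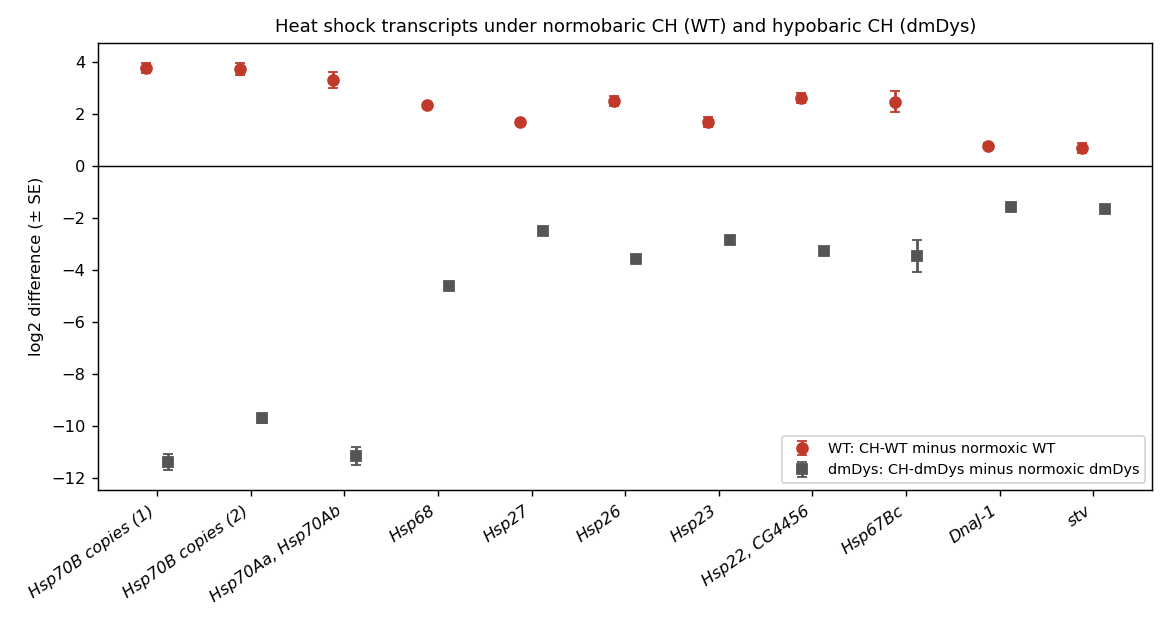
Log2 difference of heat shock and co-chaperone probe sets (vertical axis, with the SE) between CH-WT and normoxic WT flies (red circles, normobaric hypoxia) and between CH-dmDys and normoxic dmDys flies (grey squares, low air pressure on the mountain). The heat shock probe sets shown are those whose groups did not overlap in WT, and DnaJ-1 and stv were named for their differences in WT. That all 11 differences are above 0 in WT follows from this choice. In dmDys all 11 are below 0, and the Hsp70 probe sets and Hsp67Bc averaged under 4, close to the floor, in CH-dmDys flies. The overlapping probe sets of the list are not shown, among them that of CG31343, Hsp70Bb and Hsp70Bc at -0.13 in WT.

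The list of the Sima pathway and its reported targets was centred near 0, with members on both sides. Of 26 genes 3 had an unadjusted p under 0.05 as higher, against 3.08% of all probe sets. As lower bnl and Hr38 did, against 2.27%, and the median difference of the list was 0.02. Without the testis covariate 0 did as higher and 2 as lower, against 0.878% and 0.349% of all probe sets. Transcripts of Sima (sima) lay between 7.62 and 8.86 in CH-WT and between 7.79 and 8.48 in normoxic WT, and those of Hph between 9.74 and 11.53 in CH-WT and between 9.97 and 11.74 in normoxic WT. Both overlapped, with differences of -0.15 (sima) and 0.18 (Hph). The higher ones were Pdk, the kinase that shuts off pyruvate dehydrogenase, by 1.01 ± 0.24 (SE; limma, adjusted p = 0.68), the TOR inhibitor scylla (scyl) by 0.80 and the transcription factor foxo by 0.59. Their levels overlapped because normoxic WT 5 reached those of the CH-WT flies. The growth factor branchless (bnl), which guides tracheal branches and is raised by low oxygen in larvae, was at 7.59, 7.22, 7.95 and 7.44 in CH-WT, against 8.27, 8.23, 8.73 and 8.78 in normoxic WT. Its groups did not overlap, and the difference of -0.95 ± 0.22 (SE) missed the threshold (limma, adjusted p = 0.68).

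The lists of energy metabolism were also centred near 0. Of 13 glycolysis genes 1 had an unadjusted p under 0.05, against 5.35% of all probe sets. It was glucose-6-phosphate isomerase (Pgi), with a difference of 0.27, and the median of the list was -0.0015. Of 13 genes of the TCA cycle 1 had such a p, isocitrate dehydrogenase (Idh). Idh was at 13.87, 13.89, 13.78 and 14.19 in CH-WT and at 13.47, 13.65, 13.65 and 13.47 in normoxic WT. These groups did not overlap, which held for 0.476% of all probe sets as higher. None of 25 genes of the respiratory chain and ATP synthase had such a p, with differences between -0.41 and 0.13. The 11 genes of the dystrophin complex also gave 0, with differences between -0.52 and 0.44. In the 6 flies with testis transcripts the medians were -0.11 for glycolysis, -0.17 for the TCA cycle and -0.16 for the respiratory chain. There 2 glycolysis genes did not overlap as lower and 0 as higher, against 4.4% and 5.04% of all probe sets. For the TCA cycle it was 2 as lower and 2 as higher, and for the respiratory chain 1 and 0.

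**Figure D3:**
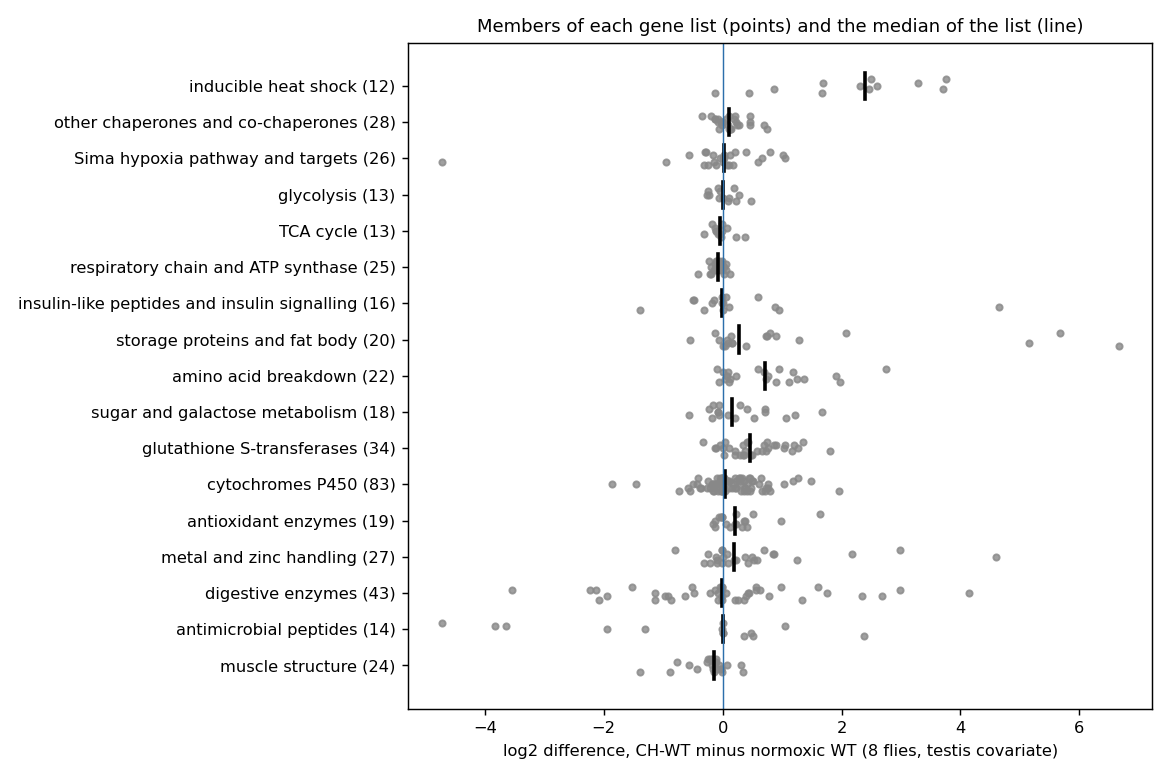
Log2 difference of CH-WT minus normoxic WT (horizontal axis) for the members of 17 gene lists, 1 probe set for each gene except in the heat shock list; points are members, black lines are list medians, and the number of members stands in parentheses. The heat shock list lies furthest to the right with a median of 2.39, the medians of amino acid breakdown and glutathione S-transferases are 0.71 and 0.46, and those of glycolysis, TCA cycle and respiratory chain are -0.0015, -0.05 and -0.07.

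The lowest difference among genes whose groups did not overlap was that of Hr38, a nuclear receptor of the NR4A type whose transcripts mark recent activity of nerve cells. It was at 4.81, 3.65, 4.18 and 7.38 in CH-WT 3, 5, 6 and 7, against 9.91, 9.04, 10.72 and 9.04 in normoxic WT 2, 3, 5 and 6. CH-WT 7 lay between the other CH-WT flies and the normoxic ones. The difference was -4.72 ± 0.47 (SE; limma, adjusted p = 0.16), and -5.12 in the 6 flies with testis transcripts (limma, adjusted p = 0.26). Hr38 passed the threshold in 2 of 17 alternatives, among them the test of only probe sets brighter than the median (limma, adjusted p = 0.012). Across the alternatives its adjusted p reached 0.76 (limma). The paper also tested Hr38 by qPCR in biologically independent samples, and reports a significant change in the array's direction. In dmDys flies the Hr38 difference was 0.59, and the responses of WT and dmDys differed (limma, adjusted p = 4.9e-04). Hr38 averaged 2.36 in normoxic dmDys and 2.95 in CH-dmDys flies, both close to the floor. A fall like that in WT could therefore not have been seen in dmDys flies.

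Insulin-like peptides are made by nerve cells of the brain and regulate sugar use and growth. Ilp5 was at 7.16, 7.86, 6.16 and 8.93 in CH-WT, against 3.36, 3.32, 2.51 and 2.30 in normoxic WT. All normoxic flies were near the floor and all CH-WT flies well above it, and the difference was 4.64 ± 0.63 (SE; limma, adjusted p = 0.29). Its size depends on the floor, and with values under 4 set to 4 it was 3.51. The difference in dmDys flies was -0.33, and the responses of WT and dmDys differed (limma, adjusted p = 0.0065). Ilp5 averaged 3.00 in normoxic dmDys and 2.67 in CH-dmDys flies, both close to the floor. Ilp2, from the same cells, lay between 8.66 and 10.37 in CH-WT and between 6.93 and 9.63 in normoxic WT, which overlapped (difference 0.95). The peptide CCHa2, which acts on the insulin-producing cells from the fat body and gut and was picked after its values were seen, was at 11.59, 11.49, 10.11 and 12.74 in CH-WT, against 8.97, 9.61, 9.95 and 9.28 in normoxic WT (difference 2.01, limma, adjusted p = 0.56). Of 16 insulin genes 8 had a mean level under 4, close to the floor, and the median difference was -0.0022. Unadjusted p was under 0.05 for 3 as higher and 0 as lower, against 3.08% and 2.27% of all probe sets. Without the testis covariate it was so for 1 as higher, against 0.878%.

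Further genes separated the groups, or overlapped through normoxic WT 5 alone. CAHbeta, a carbonic anhydrase, which converts carbon dioxide to bicarbonate, was at 10.25, 9.31, 9.84 and 11.47 in CH-WT, against 7.19, 7.98, 8.90 and 7.37 in normoxic WT (difference 2.33 ± 0.27 SE, limma, adjusted p = 0.22). Its difference was -1.81 in dmDys flies (difference between the responses, limma, adjusted p = 1.7e-05). CG10516 was at 9.42, 9.28, 9.35 and 10.92 in CH-WT, against 7.88, 7.77, 8.43 and 7.77 in normoxic WT, a difference of 1.76 ± 0.19 (SE; limma, adjusted p = 0.20). It had the lowest adjusted p in the 6 flies with testis transcripts (limma, adjusted p = 0.057). CG6602 was at 10.19, 10.34, 10.24 and 11.68 in CH-WT, against 9.02, 9.12, 10.34 and 8.74 in normoxic WT (difference 1.28, limma, adjusted p = 0.053). CG6908 differed by 1.65, CG31288 by 2.22, CG18547 by 3.79, CG17026 by 1.73, the alkaline phosphatase Alp2 by 2.42, the guidance gene comm2 by 1.29 and the juvenile hormone binding protein Jhbp11 by 1.97, and none of these reached the threshold. CG34040 was at 10.96, 3.83, 8.67 and 10.52 in CH-WT, against 2.40, 2.23, 2.85 and 2.25 in normoxic WT (difference 6.03, or 4.51 with values under 4 set to 4, limma, adjusted p = 0.78 without that setting), with CH-WT 5 close to the normoxic flies. In CG31288 and comm2 normoxic WT 5 overlapped the CH-WT flies, and in CG6908, CG18547, CG17026, Alp2 and Jhbp11 the groups were apart.

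**Figure D4:**
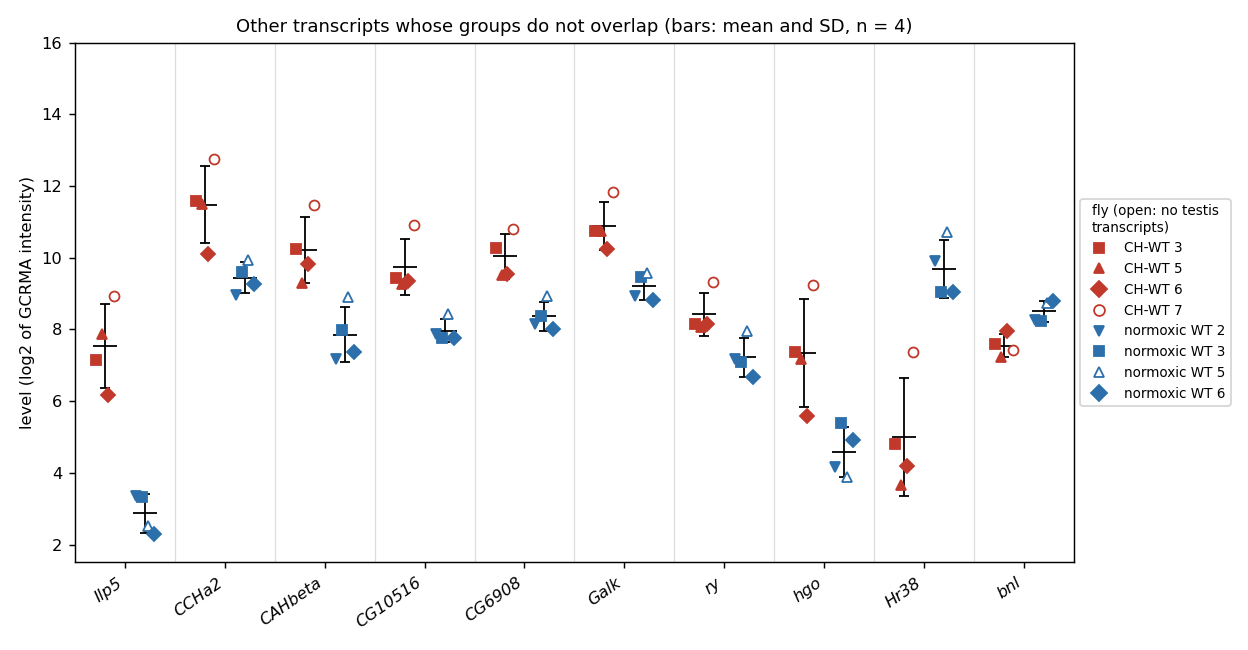
Level (log2 of the deposited intensity, vertical axis) of 10 genes whose groups did not overlap, in each CH-WT fly (red) and each normoxic WT fly (blue); open symbols are the flies without testis transcripts, and bars give the mean and SD (n = 4). Ilp5 is near the floor in normoxic WT only, and Hr38 and bnl are the genes in which CH-WT lies below normoxic WT.

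Storage proteins of the fat body were high in 3 of the 4 CH-WT flies. They carry amino acids for later use and are made in bulk by larvae. Fbp1, the receptor that takes up storage proteins, was at 8.52, 10.26, 2.23 and 10.74 in CH-WT 3, 5, 6 and 7, and lay between 2.22 and 2.24, the floor, in all normoxic WT flies. Fbp2 was at 10.57, 11.53, 2.24 and 11.40 in CH-WT, and at 2.23 to 2.25 in normoxic WT. CH-WT 6 was at the floor with the normoxic flies in both genes. The storage protein Lsp2 was at 13.44, 12.69, 6.85 and 13.71 in CH-WT, against 7.97, 6.84, 4.44 and 6.85 in normoxic WT, and the odorant-binding protein Obp99b, which the study had picked on these flies, at 9.89, 11.71, 4.26 and 12.55 in CH-WT, against 3.37, 3.28, 3.07 and 3.59 in normoxic WT. Lsp1, so named in the study's own table, gave 10.39, 10.45, 7.30 and 11.41 in CH-WT, against 6.95, 7.70, 7.29 and 7.97 in normoxic WT. CH-WT 6 was again the lowest of its group in each. Juvenile hormone esterase (Jhe) lay between 3.44 and 10.22 in CH-WT and between 3.85 and 6.00 in normoxic WT, with CH-WT 6 the lowest of the 8 flies. Obp99b and Jhe are among the genes the paper tested by qPCR in biologically independent samples. For WT flies it reports significant changes in the array's direction for every gene so tested.

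The differences were 5.67 for Fbp1, 6.66 for Fbp2, 5.15 for Lsp2, 2.39 for Lsp1, 6.24 for Obp99b and 3.10 for Jhe, and none passed the threshold (limma, adjusted p = 0.85 for each). With values under 4 set to 4 the differences were 4.35 for Fbp1, 5.35 for Fbp2 and 5.56 for Obp99b. Without CH-WT 6 the fit without the testis covariate called Fbp2 (difference 8.93, limma, adjusted p = 0.0021). Of 20 storage and fat body genes 6 had an unadjusted p under 0.05 as higher and 0 as lower, against 3.08% and 2.27% of all probe sets, and the median difference was 0.28. In the 6 flies with testis transcripts 3 of the 20 did as higher, against 3.01% of all probe sets. The lipid droplet protein Lsd-1 was at 9.56, 9.75, 9.20 and 11.94 in CH-WT, against 6.43, 8.25, 8.83 and 8.51 in normoxic WT. Its groups did not overlap, and CH-WT 6 was the lowest CH-WT fly here too.

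Muscle transcripts set the same fly apart. The flight muscle protein flightin (fln) was at 14.16, 13.25, 7.17 and 14.11 in CH-WT, against 12.65, 13.88, 13.80 and 13.80 in normoxic WT, and the troponin C gene TpnC4 at 13.03, 12.06, 8.92 and 13.25 in CH-WT, against 11.75, 12.86, 12.50 and 13.16 in normoxic WT. Strn-Mlck, a kinase of the sarcomere, was at 8.70 in CH-WT 6 and at 12.32 or more in the other 7 flies, and the flight muscle actin Act88F at 11.46 in CH-WT 6 and at 13.52 or more in the others. Thus the group differences of these genes, -1.39 for fln and -0.77 for TpnC4, came with groups that overlapped. Of 24 muscle structure genes 1 had an unadjusted p under 0.05, against 5.35% of all probe sets, and the median difference was -0.14. Whether CH-WT 6 differed in tissue or in transcript levels was not tested, and in the 9 separated heat shock probe sets it lay within the range of the other CH-WT flies except in Hsp68, slightly below it, and Hsp26, above it.

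**Figure D5:**
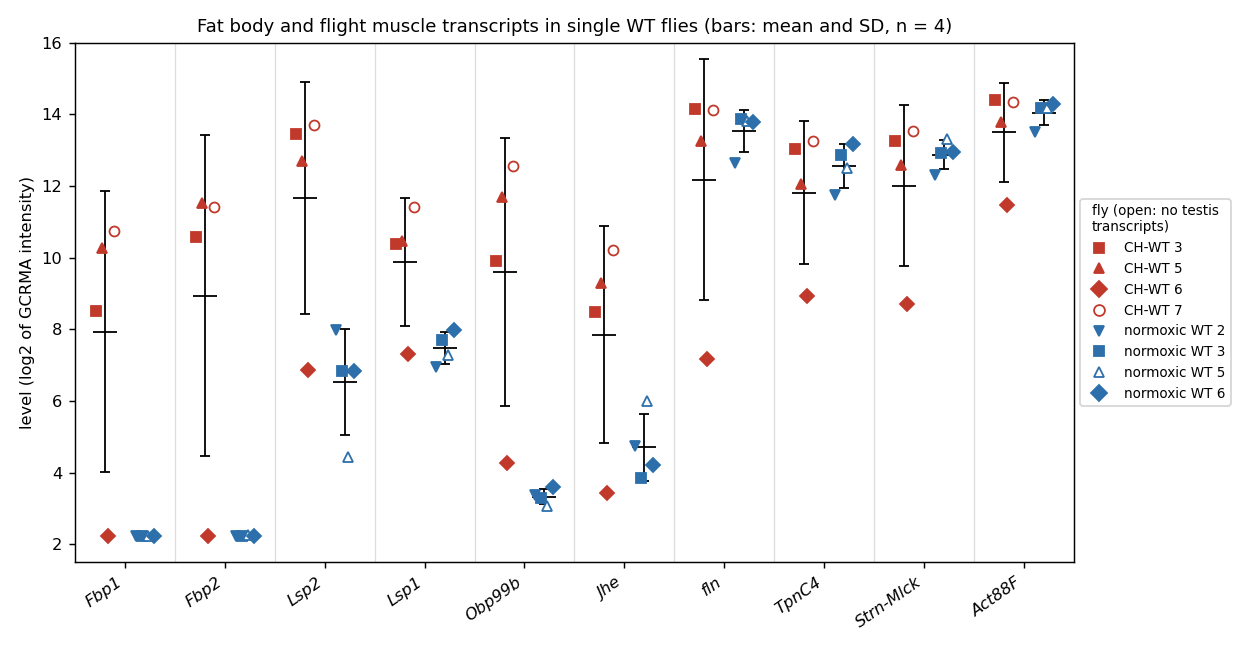
Level (log2 of the deposited intensity, vertical axis) of 6 transcripts that were high in 3 of 4 CH-WT flies and of 4 flight muscle transcripts, in each CH-WT fly (red) and each normoxic WT fly (blue); open symbols are the flies without testis transcripts, and bars give the mean and SD (n = 4). CH-WT 6 (red diamond) lies at 2.23 for Fbp1 and at 7.17 for fln, far from the other CH-WT flies in both.

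Enzymes that break down amino acids had differences above 0 at the median. Of 22 genes of amino acid breakdown 5 had an unadjusted p under 0.05 as higher and 0 as lower (3.08% and 2.27% of all probe sets), with a median difference of 0.71 against -0.002 over all probe sets. In the 6 flies with testis transcripts the median was 0.32. The homogentisate dioxygenase hgo of tyrosine breakdown was at 7.37, 7.17, 5.59 and 9.25 in CH-WT, against 4.15, 5.40, 3.88 and 4.91 in normoxic WT, groups that did not overlap (difference 2.74 ± 0.82 SE, limma, adjusted p = 0.85). Tat, the first enzyme of that pathway, differed by 1.25, Hpd by 1.97 and cystathionine gamma-lyase (Cth) by 0.94, and each of them overlapped. Rosy (ry), the xanthine dehydrogenase that makes urate, was at 8.15, 8.07, 8.15 and 9.32 in CH-WT, against 7.17, 7.09, 7.95 and 6.67 in normoxic WT. It did not overlap, with a difference of 1.18 ± 0.12 (SE; limma, adjusted p = 0.20). The aldehyde oxidase AOX1 differed by 1.20 and overlapped through normoxic WT 5. Galactokinase (Galk) was at 10.73, 10.74, 10.26 and 11.83 in CH-WT, against 8.92, 9.46, 9.59 and 8.82 in normoxic WT (difference 1.68 ± 0.23 SE, limma, adjusted p = 0.31). It was the only member of 18 sugar and galactose genes whose 8 flies did not overlap.

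Among the detoxification genes no probe set was called. Of 34 glutathione S-transferases 9 had an unadjusted p under 0.05 as higher and 0 as lower, against 3.08% and 2.27% of all probe sets, and the median difference was 0.46. Without the testis covariate 2 of the 34 did as higher, against 0.878% of all probe sets, and in the 6 flies 7 did, against 3.01%. GstE3 was at 11.23, 10.70, 11.21 and 11.85 in CH-WT, against 10.61, 10.09, 10.58 and 10.07 in normoxic WT, and GstO2 at 12.41, 12.34, 12.31 and 12.42 in CH-WT, against 12.09, 12.20, 12.04 and 12.00 in normoxic WT. These groups did not overlap, with differences of 0.90 for GstE3 and 0.29 for GstO2. GstD5 had the largest difference of the family, 1.81, and overlapped. Gclm, a subunit of the enzyme that starts glutathione synthesis, was at 6.71, 6.48, 7.64 and 9.04 in CH-WT, against 5.31, 5.58, 7.21 and 5.11 in normoxic WT, a difference of 1.63 (limma, adjusted p = 0.49). In dmDys flies it differed by -3.93, and the responses of the genotypes differed (limma, adjusted p = 1.2e-04). Of 83 cytochromes P450, 34 had a mean level under 4. Unadjusted p was under 0.05 for 8 as higher and 3 as lower, against 3.08% and 2.27% of all probe sets. Without the testis covariate it was so for 1 as higher and 2 as lower, against 0.878% and 0.349%. Cyp313a4 differed by 1.95, Cyp12c1 by 1.27, Cyp6d2 by 1.18 and Cyp6a13 by 0.79 among the higher ones, and Cyp18a1, which inactivates the moulting hormone, by -1.46.

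Metal-binding proteins, sugar-splitting enzymes of the gut and immune peptides varied widely between flies. The metallothionein MtnB, which binds zinc and copper, was at 9.98, 9.97, 12.76 and 9.65 in CH-WT, against 3.74, 8.33, 8.36 and 3.46 in normoxic WT. The groups did not overlap, but the normoxic flies fell into a high and a low pair, and the difference of 4.60 ± 1.59 (SE) missed the threshold (limma, adjusted p = 0.85). MtnC differed by 0.85, the iron carrier transferrin (Tsf1) by 1.26, the zinc importer Zip89B by 2.17, and the zinc exporters ZnT63C and ZnT35C by 0.69 and 0.58, of which Tsf1 alone did not overlap. Of 27 genes of metal handling 6 had an unadjusted p under 0.05 as higher and 1 as lower, against 3.08% and 2.27% of all probe sets. Without the testis covariate 5 did as higher and 0 as lower, against 0.878% and 0.349%. The maltase Mal-A6 was at 10.93, 10.87, 10.84 and 11.78 in CH-WT, against 7.34, 8.48, 11.26 and 6.46 in normoxic WT. Only normoxic WT 5 reached the CH-WT flies, as it did in Mal-A8 (difference 2.98), and Mal-A7 overlapped more widely. The 43 digestive enzymes had a median difference of -0.0041.

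The antimicrobial peptides are secreted into the blood by the fat body after infection. Def was at 2.73, 2.68, 3.19 and 6.12 in CH-WT 3, 5, 6 and 7, against 6.03, 7.19, 6.88 and 9.10 in normoxic WT 2, 3, 5 and 6. Mtk was at 2.83, 5.09, 6.07 and 9.68 in CH-WT, against 8.43, 7.62, 11.66 and 10.98 in normoxic WT, and DptB at 2.17, 3.31, 2.21 and 11.04 in CH-WT, against 7.53, 8.49, 8.15 and 13.20 in normoxic WT. CH-WT 7 overlapped the normoxic flies in each, and the other 3 CH-WT flies lay below all of them. The differences were -3.65 for Def, -3.83 for Mtk and -4.72 for DptB (limma, adjusted p of 0.80, 0.85 and 0.85), and with values under 4 set to 4 they were -2.79 for Def and -3.63 for DptB. Of the 14 peptides 7 had a mean level under 4. As lower 2 had an unadjusted p under 0.05 and as higher Drsl5 alone (difference 2.38), against 2.27% and 3.08% of all probe sets. In the 6 flies with testis transcripts 3 did as lower and 0 as higher, against 1.73% and 3.01% of all probe sets, and the groups did not overlap for 4 peptides, all lower in CH-WT, against 4.4%. SPE, the protease that activates the Toll ligand, was at 10.06, 9.12, 9.14 and 10.79 in CH-WT, against 8.09, 8.66, 7.72 and 8.60 in normoxic WT, and did not overlap (difference 1.5). Transcripts of blood cells had a median of 5.94 in CH-WT 7 and of 2.26 to 2.75 in the other 7 WT flies, and their part in these levels was not tested.

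Several of the genes below normoxia rested on single flies. CG31106 was at 10.92, 9.24, 9.72 and 11.90 in CH-WT, against 12.33, 12.12, 12.85 and 12.17 in normoxic WT (difference -1.94, limma, adjusted p = 0.66), and CG18530 at 2.37, 2.72, 4.10 and 4.18 in CH-WT, against 6.82, 5.23, 8.22 and 4.61 in normoxic WT (difference -2.92, or -2.18 with values under 4 set to 4). In both, all CH-WT flies were the lower ones. Acbp6, which binds fatty acyl coenzyme A, was at 3.64, 5.21, 4.99 and 4.44 in CH-WT, against 9.08, 5.53, 10.39 and 5.53 in normoxic WT, so that normoxic WT 2 and 5 carried the difference of -3.10. Normoxic WT 5 held transcripts of germ cells that the other WT flies had at lower levels. The germline gene nanos was at 7.77 in this fly and between 2.13 and 2.21 in the other 7, the piRNA factor aub at 9.86 in it and between 2.87 and 5.12 in the others, and the ribosomal protein RpL22-like at 9.96 in it and between 2.46 and 8.69 in the others. Nanos, RpL22-like and the cell division gene tum counted among the non-overlapping lower genes, and without the flies lacking testis transcripts their differences were -0.03, -0.65 and -0.77. CG11322 and CG5348 were low in CH-WT 7 and normoxic WT 5 (2.18 to 3.42), and in the other 6 flies CG11322 lay between 5.41 and 5.61 in CH-WT and between 6.47 and 6.69 in normoxic WT.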

How the data were processed

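RNA of each single whole fly was amplified with the NuGEN Ovation kit and hybridized to an Affymetrix Drosophila Genome 2.0 array. The authors computed GCRMA probe set summaries in GeneSpring GX, and the deposited values are intensities on a linear scale; their centring is not given in the sources used here, and the GCRMA version is not given either. The WT arrays (lowest log2 value 1.95, upper quartile 8.98 to 9.09) and the dmDys arrays (2.06) have different floors, as after separate normalizations, so levels were compared within a genotype only. Since the files hold no read depth, the number of arrays limits the precision.

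Intensities were taken to log2 without an offset. Of 18952 probe sets 45 spike-in controls were left out. Of the other 18907, 13650 have 1 gene symbol, 402 several and 4855 none in the platform annotation, with symbols updated through RefSeq, and 4 were named from the study's table. Limma 3.58.1 in R 4.3.3 (lmFit and eBayes) compared CH-WT with normoxic WT in 3 fits, on 8 flies, on 8 flies with the median log2 level of betaTub85D, Mst87F and dj as a covariate, and on the 6 flies with testis transcripts, and tested the difference between the WT and dmDys responses on 16 flies. P-values were adjusted over all probe sets (Benjamini-Hochberg). The fits were also run on simulated data of 18907 probe sets, in which only probe sets with a mean log2 level over 6 were changed. Noise was drawn independently for each probe set and fly around the fit with the covariate, with the spread left by that fit. There the fit with the covariate called 41.8% of probe sets changed by a log2 difference of 1.5 and 88.1% of those changed by 3. The fit without it called 7.46% and 38.8%, and the fit on 6 flies 32.8% and 64.2%. The advantage of the covariate was thus built in. Dim probe sets and flies that deviate in many genes at once were not covered.

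Gene lists used the brightest probe set of each gene over the 8 WT flies, and all probe sets for the inducible heat shock genes. Genes were named from the largest non-overlapping differences of each fit with 1 symbol and the smallest p, and from genes the study named for this comparison on these flies. The largest differences of each list described and marker genes of cell types were the other sources. A gene named outside this rule is said to be so. Genes that met the rule but are not described include Ctf4, CG30105 and dUTPase among the lower ones, and CG15369 and CG7738 of the study. The members, lists and rules were chosen with earlier results of these data known. The study's own fold changes were not used. Alternatives were other normalizations, floors, filters, array weights, a moderation trend, the omission of probe sets that several transcripts share, the control transcripts' 3' to 5' difference added as a covariate, a replicate block, and the omission of each fly in turn. The recount of the heat shock list under each of them and the floor in the fit of 16 flies were added after the data had been seen.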

Additional observations from a re-analysis of the deposited data

Results flagged for a closer look

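Single flies lay far from the others of their group. In 31 of 160 checks the gap between the highest or lowest fly and its nearest neighbour, as a share of the range of the 4 flies, was above Dixon's critical value. Chance gives about 1 in 20 for genes chosen without regard to their values, and these genes were named with the values known, so their count is not to be read against that rate. The fly apart was normoxic WT 5 for nanos (0.986), aub (0.854), tum (0.861) and RpL22-like (0.888), for the probe sets of CG31343 with Hsp70Bb and Hsp70Bc (0.959), of Hsp22 and CG4456 (0.981) and of Hsp70Bb and Hsp70Bc (0.885), and for CG10516 (0.835), comm2 (0.874), Cyp6d2 (0.957), Zip89B (0.853), CG11322 (0.932) and CG5348 (0.931). It was CH-WT 7 for the 3' to 5' difference of control genes (0.896), CG10516 (0.911), CG6602 (0.900), ry (0.937), Mal-A6 (0.91), Def (0.854), DptB (0.872), CG11322 (0.919), CG5348 (0.857) and RpL22-like (0.837). It was CH-WT 6 for Fbp2 (0.897), Lsp2 (0.852), fln (0.871) and MtnB (0.894), and CH-WT 5 for Hsp23 (0.924). It was normoxic WT 2 for fln (0.937) and Act88F (0.852), and normoxic WT 6 for DptB (0.830).

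The response of WT flies to normobaric hypoxia differed from that of dmDys flies to hypobaric hypoxia in 30 of 79 checks (limma, adjusted p under 0.05), against 5.37% of all probe sets. Many of the 79 were named for their difference in WT flies, which enters the value tested, so the count is a description. The log2 difference of the WT minus the dmDys response was 15.16 for the 4-copy probe set of Hsp70B, 13.42 for Hsp70Bb and Hsp70Bc, 14.46 for Hsp70Aa and Hsp70Ab, 1.84 for the dim Hsp70B probe set, 6.94 for Hsp68, 4.17 for Hsp27, 6.10 for Hsp26, 4.55 for Hsp23, 5.93 for Hsp67Bc and 5.89 for Hsp22 with CG4456. These 4 Hsp70 probe sets and Hsp67Bc averaged under 4 in CH-dmDys flies, close to the floor, so the size and order of their values depend on the floor. With values under 4 set to 4 they were 14.55, 12.99, 13.98 and 0 for the Hsp70 probe sets in the same order, and 4.03 for Hsp67Bc. Among co-chaperones it was 2.32 for DnaJ-1 and 2.35 for stv. It was also above 0 for Ilp5 (4.97, or 3.67 with that setting), CAHbeta (4.14), CG10516 (2.42), CG6602 (1.46), mora (1.58), Pdk (1.13), comm2 (1.02), MtnC (2.34), GstE3 (1.34), GstO2 (0.48) and Gclm (5.55). It was below 0 for Hr38 (-5.32, or -4.64 with that setting), CG31106 (-4.08), CG18530 (-5.65), Tat (-3.60), Mtk (-5.22), CG5348 (-1.34) and Acbp6 (-7.49). Hr38 was close to the floor in both dmDys groups, so its value reflects the WT flies. Genotype and type of hypoxia cannot be told apart in these values.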

How the results depend on the processing

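For the fit on 8 flies, which called 0 probe sets, quantile normalization gave 2, centring 4, array weights 6, a moderation trend 4 and the omission of shared probe sets 2, and leaving out each fly in turn gave 0 to 1 (Fbp2, without CH-WT 6). For the fit with the testis covariate, which called 4, centring gave 7, the restriction to probe sets brighter than the median 13 (12 higher, and Hr38 lower), array weights 18 (15 higher, 3 lower), a trend 7, the omission of shared probe sets 2 and the 3' to 5' difference as a further covariate 0. Leaving out each fly gave 0 to 3. For the 6 flies, with 0 calls, centring gave 1, the brighter probe sets 9 (8 higher, 1 lower), array weights 5, a trend 2, the omission of shared probe sets 1, and leaving out each fly 0 to 3. The difference between the WT and dmDys responses fell to 195 probe sets without the testis covariate, against 1016 with it. For control genes the 3' to 5' difference was -0.13 with the middle probe sets and lay between -0.92 and -0.40 without each fly in turn. The causes were not tested.

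The titles share the numbers 3, 5 and 6 between the groups. The residuals of same-numbered flies after the fit with the covariate had correlations of 0.17, 0.04 and -0.47. Their deviations from the group means, without the covariate, had correlations of 0.67, -0.88 and 0.61. Normoxic WT 5 lacked testis transcripts and CH-WT 5 had them. The signs differed between the numbers in both measures, and the numbers were not taken as pairs. With the replicate block 0 probe sets were called in each of the 3 fits, and 8 heat shock probe sets had an unadjusted p under 0.05 as higher, against 0.481%, 4.78% and 4.99% of all probe sets in the fits on 8 flies, with the covariate and on 6 flies. Of the values for single named genes 222 kept their direction and their side of the threshold, 22 passed it in addition, 40 no longer passed it and 0 changed direction. Hsp27 was past the threshold in 8 of 17 alternatives, Hsp68 in 7, the 4-copy Hsp70B probe set in 6 of 16 and Hsp26 in 5 of 17, and the Hsp27 difference lay between 1.60 and 1.78.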
